A study of Mus musculus with 12 samples.

Results

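Hopx was followed across 4 genotypes of mouse embryonic ventricle through every probe set that the platform annotation assigns to Hopx alone. Hopx is 1 of 18193 genes with a probe set of their own, and it has 2 of them, 1428662_a_at and 1451776_s_at, of 34945 that name a single gene and 45101 on the array. No probe set shared between Hopx and another gene was found. The first is called the brighter and the second the dimmer probe set, because the first gave the higher signal on every array. Their levels are not set against each other, since a probe set's signal depends on its own probes, and only their changes between genotypes are compared.

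HOPX, the HOP homeobox protein, is an unusual homeodomain protein that lacks the residues needed to bind DNA. In the developing heart it is known to act downstream of the cardiac factor NKX2-5 and to limit transcription driven by serum response factor (SRF). It does so by bringing in class I histone deacetylases such as HDAC2, the enzyme removed in the second knockout of the series. HOPX has also been described as a partner of SMAD proteins that dampens Wnt signalling in cardiac progenitors.

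The study hybridised Trizol-extracted total RNA from ventricles of embryonic day 16.5 mice to Affymetrix arrays, with 3 independent ventricles, labelled biological replicates, in each of 4 groups. The groups were wild type (neither gene knocked out), Hdac2-null (Hdac2 knockout), Hopx-null (Hopx knockout) and double-null (Hdac2-Hopx knockout). The knockout alleles, the exons they remove, any Cre driver, the strain, the litters and whether a sample pooled embryos were not stated in the labels. The positions of the Hopx probes within the transcript are also not stated there, so residual signal at a probe set cannot be tied to a part of the gene. In bulk ventricle, fewer cells of a type and less RNA per cell cannot be told apart.

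RefSeq (GRCm38.p6) lists 2 promoters for Hopx, both on the minus strand of chromosome 5 with starts 19856 bases apart. The windows hold 250 bases before and 50 after each start, and they are shown as the listed starts of the transcript measured here. The upstream window is chr5:77115074-77115373 and the downstream window is chr5:77095218-77095517, each printed 5′ to 3′ along the minus strand with motif matches in capitals.
Hopx upstream promoter: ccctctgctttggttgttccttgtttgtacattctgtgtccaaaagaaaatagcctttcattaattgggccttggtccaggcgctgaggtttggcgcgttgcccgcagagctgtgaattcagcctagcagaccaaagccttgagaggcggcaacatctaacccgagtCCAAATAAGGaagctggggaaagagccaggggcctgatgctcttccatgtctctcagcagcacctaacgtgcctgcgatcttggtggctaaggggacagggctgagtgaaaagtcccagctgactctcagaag
Hopx downstream promoter: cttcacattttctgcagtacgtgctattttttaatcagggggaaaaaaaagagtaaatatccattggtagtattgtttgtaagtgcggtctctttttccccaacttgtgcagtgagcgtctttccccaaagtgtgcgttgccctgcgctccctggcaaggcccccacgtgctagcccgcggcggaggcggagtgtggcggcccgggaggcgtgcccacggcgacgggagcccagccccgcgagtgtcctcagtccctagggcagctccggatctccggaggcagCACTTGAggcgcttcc

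Both strands were searched for 5 motifs. These were the CArG box to which SRF binds, the NKX2-5-type motif TNAAGTG, the motif AGATAA of GATA factors, the TATA box motif TATAAA and the T-box factor motif AGGTGT. The upstream window held 1 CArG box, CCAAATAAGG, whose first base lay 83 bases before the start. A CArG box was found in 1.63% of all 32851 RefSeq promoter windows of this length. The downstream window held 1 NKX2-5-type match, read as CACTTGA on the printed strand and TCAAGTG on the other, beginning at base 35 after the start. That motif was found in 11.5% of all windows. The other 3 motifs were in neither Hopx window, against 11.2% (GATA), 13.6% (TATA) and 13.7% (T-box) of all windows. A match describes these letters only, and neither motif overlapped another of those searched.

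The tissue and the knockouts were checked first. All 8 cardiomyocyte markers lay above the floor (the level below which signal was treated as unmeasured, 82.5 units) on all 12 arrays. Their summed signal ran from 250077 to 266951 over all arrays. The Hdac2-null arrays (252964 to 258946) lay below the Hopx-null arrays (260448 to 266951), a pair for which no share of all genes was counted. The ranges of wild-type (250832 to 265364) and double-null arrays (250077 to 261169) overlapped both. Of 6 lung and alveolar markers, a tissue also known for Hopx, Aqp5, Nkx2-1, Sftpc and Scgb1a1 were below the floor on all 12 arrays, Ager was above it on 9 and Pdpn on all 12 (3397 to 6326 units). Hdac2 (1445684_s_at) fell from 4839 ± 314 units in wild type to 4.05 ± 0.00490 without Hdac2 alone and 4.15 ± 0.148 in the double-null group (SD, n = 3 each), and was 4903 ± 679 in Hopx-null ventricles. The floor was passed by 37.5% to 37.9% of probe sets per array. Of 9667 genes tested, Hopx was the only one called in Hopx-null against wild type and in double-null against Hdac2-null (limma, adjusted p under 0.05). With limma array weights the second comparison called 951 genes, or 9.84%, with Hopx among them.

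At the brighter probe set, Hopx signal was 8653, 8577 and 12221 units in the 3 wild-type ventricles. It was 1865, 2046 and 2066 units in the Hopx-null ventricles and 1728, 1715 and 1656 units in the double-null ventricles. All 6 arrays without Hopx lay below all 6 with it, yet each remained far above the floor. The Hopx-null mean of 1992 ± 111 units (SD, n = 3) was 20.3% of the wild-type mean of 9817 ± 2082. The double-null mean of 1700 ± 38.6 was 17.3% of the wild-type mean.

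At the dimmer probe set the signal almost disappeared. Wild-type ventricles gave 696, 520 and 1145 units. Hopx-null ventricles gave 9.70, 12.9 and 13.3 units, and double-null ventricles 9.70, 9.70 and 9.72 units. All 6 values without Hopx lay below the floor, and 53.0% of all values in the deposited table were lower still than the lowest of them. The Hopx-null mean was 1.52% and the double-null mean 1.23% of the wild-type mean of 787 ± 322 units.

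**Figure D1:**
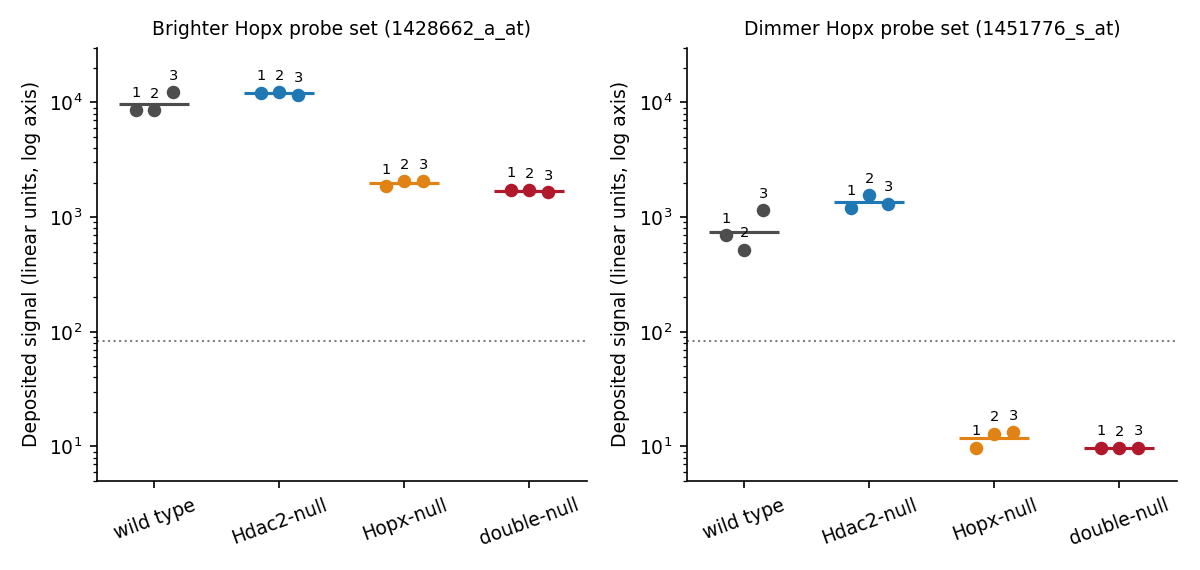
Deposited Hopx signal of each array (points, numbered by replicate) in the 4 genotypes, on a log axis in linear units; bars are geometric means of 3 arrays and the dotted line is the floor of 82.5 units. The brighter probe set keeps 1656 to 2066 units in the 6 ventricles without Hopx, whereas the dimmer one falls to between 9.70 and 13.3 units.

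The loss of Hopx passed the test at both probe sets in all 3 comparisons that remove it. In Hopx-null against wild type the brighter probe set fell by 2.28 on the log2 scale (SE 0.11, adjusted p = 5.741e-06, limma), a 4.86-fold difference. In double-null against wild type it fell by 2.51 (adjusted p = 1.044e-06), or 5.70-fold. In double-null against Hdac2-null it fell by 2.82 (adjusted p = 5.917e-07), or 7.08-fold. Of all genes tested, 0.0103%, 0.031% and 0.0103% were called in these 3 comparisons.

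For the dimmer probe set the floor turns each fold into a bound. Hopx was at least 9.04-fold lower in Hopx-null than in wild-type ventricles (log2 change -3.18, SE 0.23, adjusted p = 0.0002936, limma over 15712 probe sets). The bound was the same in double-null against wild type (adjusted p = 0.0001468), because all 6 arrays without Hopx sat at the floor. It was at least 16.4-fold in double-null against Hdac2-null (log2 change -4.03, adjusted p = 2.583e-05). In these 3 fits 0.0127%, 0.0382% and 0.0191% of probe sets were called. The ratios of mean deposited signals were larger, at 66.0, 81.1 and 139.9, but they rest on values below the floor. When the fit held only the wild-type and Hopx-null arrays, the adjusted p of the dimmer probe set was 0.0932.

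The probe sets therefore differed in how much they lost. Over the 6 arrays without Hopx against the 6 with it, the brighter probe set changed by -2.55 and the dimmer by -3.60 on the floored log2 scale. The dimmer probe set fell by 1.05 more in log2 units on each array's paired readout (two-sided exact permutation test over 12 arrays, p = 0.0021645). That p is the smallest 6 against 6 arrays can give. On the deposited values without a floor, the changes were -2.55 and -6.55 and the gap 3.996, with the same p. The size of the gap is thus set by the floor, while its direction was the same on both scales. In a pooled comparison added after the values were seen, both probe sets fell in the arrays without Hopx against those with it. The adjusted p was 4.235e-08 over genes, of which 0.0103% were called, and 2.296e-06 over probe sets, of which 0.0127% were called.

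Without Hdac2 alone, Hopx signal stayed within or above the range of wild type. The brighter probe set gave 12210, 12240 and 11677 units in the Hdac2-null ventricles, a mean of 12042 ± 317 and 123% of the wild-type mean. Wild-type ventricle 3, at 12221 units, fell inside that range, so the groups overlapped. The difference was 0.31 on the log2 scale (95% confidence interval 0.06 to 0.56), and it did not pass across genes (unadjusted p = 0.0182, adjusted p = 0.893, limma). That interval pools the spread of all 4 groups, of which wild type was the widest (SD of log2 signal 0.29, against 0.04 in Hdac2-null ventricles). Here 0.0207% of genes were called, Hdac2 and Tnni2. A two-sided exact permutation test over these 6 arrays gave p = 0.3, where 0.1 is the smallest 3 against 3 can reach.

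The dimmer probe set gave 1211, 1558 and 1306 units in the Hdac2-null ventricles, all above the highest wild-type value of 1145. The mean of 1358 ± 179 units was 172% of wild type. The log2 difference was 0.86 (SE 0.23, 95% confidence interval 0.35 to 1.36), which also did not pass (unadjusted p = 0.00335, adjusted p = 0.865, limma). Of all probe sets 0.0191% were called, and 9.89% of tested genes had groups that did not overlap in this comparison. The exact permutation test gave p = 0.1, the smallest possible.

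The comparison with wild type turned on a single array. Wild-type ventricle 3 gave 1.41 and 1.42 times the brighter signal of wild-type ventricles 1 and 2, and 1.64 and 2.20 times their dimmer signal. Its 2 probe sets moved together. The Hdac2-null mean differed from wild type 3 by -0.02 (brighter) and 0.24 (dimmer) in log2 units, but from the mean of wild types 1 and 2 by 0.48 and 1.17. Without wild-type ventricle 3 the rise of Hopx in Hdac2-null ventricles passed at both probe sets. The values were then 0.48 (SE 0.06, adjusted p = 0.03386, limma) and 1.17 (adjusted p = 0.0388). Leaving out any other array gave values from 0.23 to 0.34 at the brighter probe set, none of which passed.

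**Figure D2:**
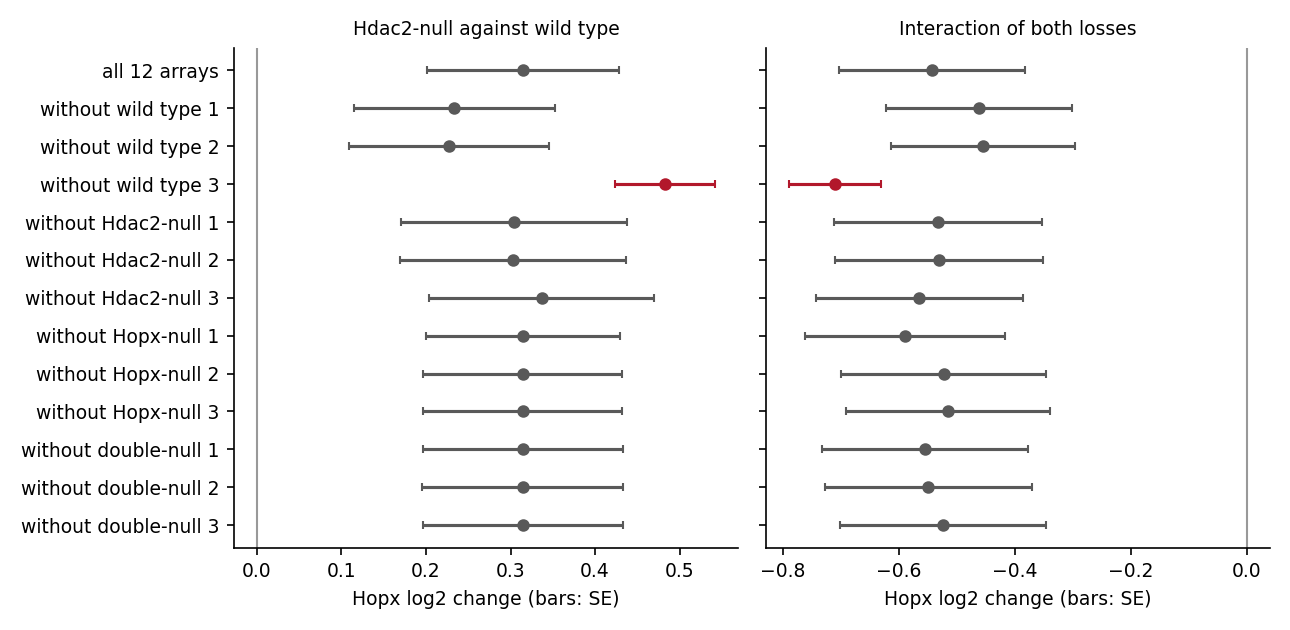
Log2 change of Hopx at the brighter probe set (points, with SE) in Hdac2-null against wild type and in the interaction of both losses, with all 12 arrays and with each array left out in turn; red marks an adjusted p under 0.05. Only the fits without wild type 3 are red, at 0.48 and -0.71.

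The spread of Hopx among wild-type ventricles was wide, and at the brighter probe set it rested on wild type 3. The coefficient of variation was 21.2% at the brighter and 40.9% at the dimmer probe set, against 2.63% and 13.2% in Hdac2-null ventricles. Over wild types 1 and 2 alone it was 0.624% and 20.5%, the latter still above the 13.2% of Hdac2-null ventricles. The standard deviation of log2 signal in wild type, 0.29 and 0.58, was larger than that of 83.9% and 96.8% of tested genes, whose median was 0.13. Those genes were each read at their brightest probe set, which the dimmer Hopx probe set is not. In Hdac2-null ventricles 17.6% of genes varied less than the brighter probe set. Hopx-null and double-null ventricles varied by 5.56% and 2.27% at the brighter probe set.

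Some other values differed between these arrays or groups, and their part in the Hopx result was not tested. Signal of Xist, which coats the inactive X chromosome in female cells, was 6016 and 6130 units in wild types 1 and 2 and 9.50 in wild type 3. In Hdac2-null ventricles 1, 2 and 3 it was 6108, 6.66 and 8.67 units. Summed lung and alveolar markers were 4242 and 4433 units in wild types 1 and 2, 5452 in wild type 3 and 5122 to 6447 in Hdac2-null ventricles. Nearly all of that sum was Pdpn (3397 to 6326 units over the 12 arrays), and Ager reached at most 197. The other lung markers, Aqp5, Nkx2-1, Sftpc and Scgb1a1, were below the floor on all 12 arrays. Summed red cell markers were higher in Hdac2-null ventricles (459 to 1516 units) than in wild type (153 to 386), with 3 of 4 markers measured. Of these Hba-a1 was below the floor on all 12 arrays, Hbb-y exceeded it on 5 and Alas2 on 11. Summed liver markers were also higher (52.4 to 569 against 21.4 to 38.9 units), but all 3 were at or below the floor on every wild-type array. Over the 12 arrays Alb and Afp exceeded the floor on 1 array each and Ttr on 3. Summed leukocyte markers (4615 to 4918 against 5390 to 6004 units) and fibroblast markers (52126 to 53899 against 54743 to 58099) were lower. The red cell, liver, leukocyte and fibroblast sums did not overlap between these groups, like the values of 9.89% of tested genes. No such share was counted for sums of markers.

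The signal left after Hopx knockout was compared with and without Hdac2. The residual brighter signal was 1656 to 1728 units in double-null and 1865 to 2066 units in Hopx-null ventricles, so the groups did not overlap. The log2 difference was -0.23 (95% confidence interval -0.48 to 0.02) and did not pass (adjusted p = 0.622, limma, with 0.0207% of genes called). The exact permutation test gave p = 0.1, and 14.8% of tested genes had groups that did not overlap here. At the dimmer probe set all 6 arrays were at the floor and no fold is given, with 0.0191% of probe sets called.

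At the brighter probe set the difference without against with Hdac2 was 0.31 with Hopx intact and -0.23 with Hopx lost. These signs are opposite, but neither difference passed, and the interval of the second covered 0. The interaction was -0.54 (SE 0.16, 95% confidence interval -0.90 to -0.19), with an unadjusted p of 0.00621 and an adjusted p of 0.942 (limma). No gene passed this test (0% called), and 404 of 9667 had an unadjusted p under 0.05. The dimmer probe set gave -0.86 (adjusted p = 0.951), again with 0% of probe sets called, and 680 at an unadjusted p under 0.05. Its arrays without Hopx were all at the floor. That value is therefore the Hdac2-null against wild type difference with its sign reversed, and no separate reading of the interaction. Without wild-type ventricle 3 the brighter interaction was -0.71 and passed (adjusted p = 0.04491, limma). That fit rests on 2 wild-type arrays, whose coefficient of variation was 0.624%. The dimmer interaction passed with no array left out in turn (lowest adjusted p = 0.6156, limma).

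**Figure D3:**
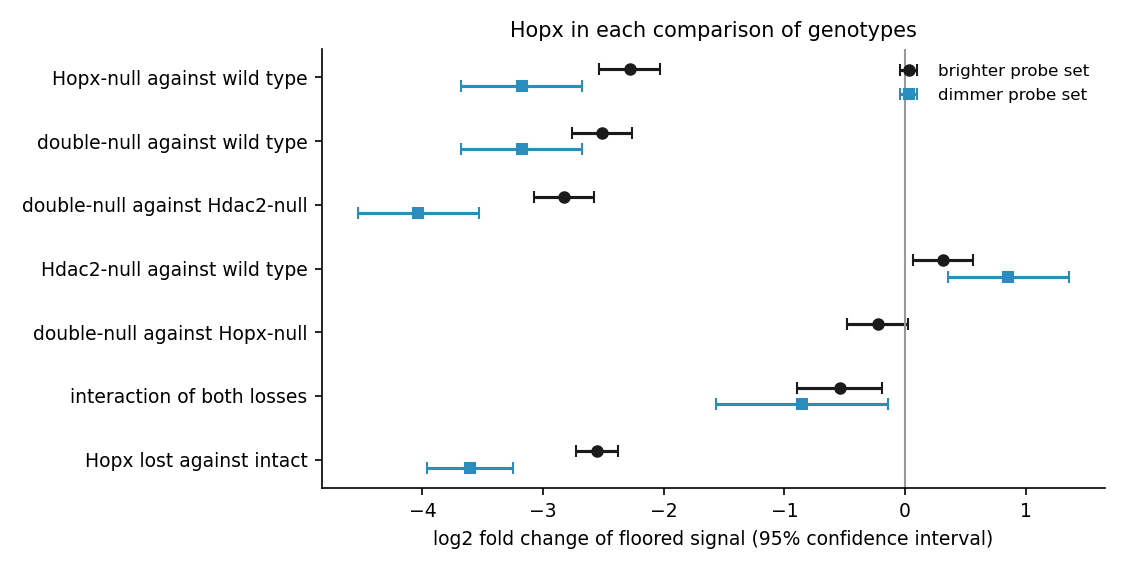
Log2 change of floored Hopx signal (points) with 95% confidence intervals in each comparison, for the brighter (circles) and dimmer (squares) probe set; the dimmer has no point in double-null against Hopx-null, where all arrays sat at the floor. The 3 comparisons that remove Hopx lie between -2.28 and -4.03, and the Hdac2-null against wild type intervals lie above 0 without passing the test across genes.

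The genes beside Hopx were examined on both sides. Of the 10 protein-coding genes on each side in RefSeq order, 18 had a probe set and 14 were tested. None of the 14 was called in any comparison, where 0% to 0.031% of all genes were. With array weights, Paics, Thegl, Noa1, Tecrl and Cenpc1 were called in double-null against Hdac2-null, where 9.84% of all genes were. The closest on the side of the Hopx 3′ end is Thegl, named for its likeness to a spermatid protein, and the closest beyond the 5′ end is Spink2, a serine protease inhibitor gene. Spink2 was not tested, since its signal stayed between 7.61 and 9.69 units on all 12 arrays.

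Thegl was the exception in the deposited values. Probe set 1453483_at gave 18.04, 20.2 and 4.14 units in wild-type and 4.14, 4.13 and 4.14 units in Hdac2-null ventricles. Its Hopx-null signals were 36.0, 118 and 47.1 units, and its double-null signals 120, 107 and 82.7 units. All 6 ventricles without Hopx were above all 6 with it, whose highest value was 20.2. Only 4 of these 12 values exceeded the floor, all of them from ventricles without Hopx.

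The same separation was counted across the array. Among the 34945 probe sets that name 1 gene, 128 were higher on all 6 arrays without Hopx than on all 6 with it, or 0.366%, and 44 were lower. This count was made after the Thegl values were seen and includes probe sets below the floor, so no size is given for the Thegl difference. A further Thegl probe set, 1447439_at, stayed between 4.11 and 4.17 units on all 12 arrays.

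No Thegl comparison passed with the floor. The floored log2 change was 0.17 in Hopx-null against wild type (adjusted p = 1.0, limma) and 0.31 in double-null against Hdac2-null (adjusted p = 0.4793). In the pooled comparison of ventricles without and with Hopx it was 0.24 (adjusted p = 0.5708).

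**Figure D4:**
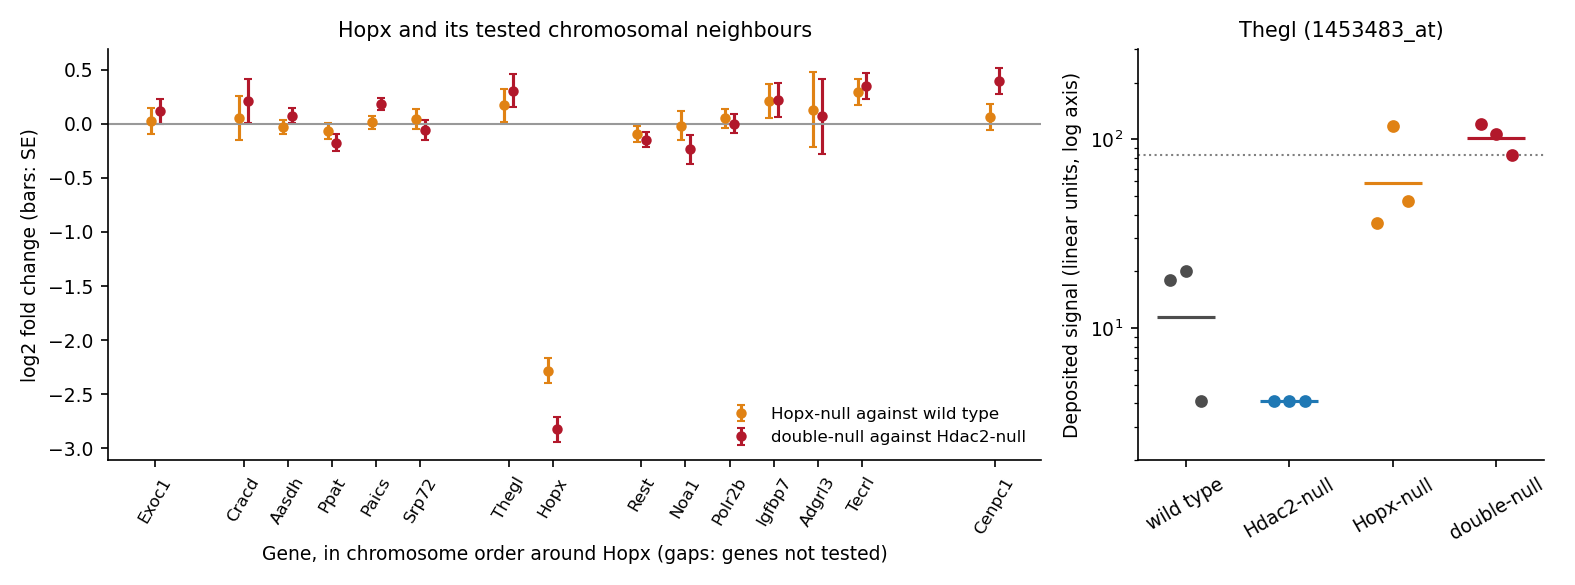
Left, log2 change (points, with SE) of floored signal for Hopx and its tested neighbours in chromosome order, in 2 comparisons that remove Hopx; right, deposited Thegl signal of each array on a log axis in linear units, with geometric means (bars) and the floor of 82.5 units (dotted). Hopx alone departs far from 0 among floored values, while the 6 Thegl values without Hopx (36.0 to 120 units) lie above the 6 with it.

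None of the other neighbours was called in the main fit. In double-null against Hdac2-null 4 of the 14 had an unadjusted p under 0.05 (limma), against 1097 of all 9667 genes tested. In the pooled comparison, added after the values were seen, 5 of the 14 did, against 844 of 9667. In double-null against Hdac2-null the 14 changes ran from -0.24 to 0.40 with a median of 0.10, against -0.0045 for all genes tested. Rest, a repressor of neuronal genes and the second gene beyond the 5′ end, had log2 values of -0.09 in Hopx-null against wild type and -0.15 in double-null against Hdac2-null. Noa1, which encodes a mitochondrial GTPase and comes next, had -0.02 and -0.24. On the other side Srp72, a subunit of the signal recognition particle, had 0.05 and -0.06. None of these 6 values passed (adjusted p from 0.4786 to 1.0, limma).

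Paics and Ppat, neighbouring genes of purine synthesis, had values of opposite sign in double-null against Hdac2-null, 0.18 and -0.17, at unadjusted p of 0.00926 and 0.0447 (adjusted p = 0.3677 and 0.4282, limma). Tecrl, a heart-expressed reductase-like gene, gave 2874, 2221 and 2064 units in wild type and 3045, 2649 and 2993 in Hopx-null ventricles. It gave 2135, 1738 and 2072 units in Hdac2-null and 2519, 2509 and 2530 in double-null ventricles, the latter all above the former. The groups of 26.2% of tested genes did not overlap in this comparison. Its log2 changes were 0.29 and 0.35, and neither passed (adjusted p = 1.0 and 0.3677, limma). Cenpc1, a centromere protein gene, had a value of 0.40 in double-null against Hdac2-null (adjusted p = 0.3677).

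Genes known to regulate or partner HOPX, and groups it is known to affect, were described from lists chosen with earlier results of these data known. Of 15 regulators and partners, none was called in Hopx-null against wild type (0.0103% of all genes), with 4 changes above and 11 below 0 and a median of -0.04. The median over all tested genes was -0.0025. The smallest p-values were those of Tbx5 (-0.40), a T-box factor of the chambers, Smad5 (0.12), a BMP signal carrier, and Nkx2-5 (-0.12). In double-null against Hdac2-null the median was 0.02, again with no call. The values were 0.27 for Smad5, 0.18 for Tbx20 and -0.10 for Gata6, with adjusted p from 0.4201 to 0.6246.

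Against wild type the double-null ventricles had 1 call in this list, Hdac2 itself (-5.87, adjusted p = 1.006e-10, limma), as Hdac2-null ventricles had. Neither Tbx5 (-0.60, adjusted p = 0.663) nor Gata6 (-0.18, adjusted p = 0.6691) passed. Tbx5 signal was 1269, 694 and 619 units in wild type and 544, 526 and 544 in double-null ventricles. The groups did not overlap, like those of 15.4% of tested genes, and wild type 1 stood above the rest. In double-null against Hopx-null, Hdac2 was again called (-5.88, adjusted p = 9.83e-11), while Gata6 (-0.14) and Tbx20 (0.14) did not pass.

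Of 16 muscle and immediate early genes listed as SRF targets in general, none was called in any comparison, against 0% to 0.031% of all genes. With array weights 1 of them, Actg2, was called in double-null against Hdac2-null, against 9.84% of all genes. The median log2 value was -0.0031 in Hopx-null against wild type, with 8 above and 8 below 0, and -0.05 in double-null against Hdac2-null. Those with the smallest p in the first comparison were the smooth muscle genes Actg2 (0.41) and Myh11 (0.66) and the immediate early gene Egr1 (-0.25). Actg2 and Myh11 each had a wild-type signal below the floor, 80.5 and 74.6 units, so values raised to the floor enter both changes. In the second comparison the smallest p-values were those of Smyd1 (0.15), a muscle methyltransferase gene, Cfl2 (0.07), a cofilin gene, and Fos (-1.004). Fos was 382, 447 and 1596 units in Hdac2-null and 391, 479 and 181 in double-null ventricles, so 1 array in each group stood apart. In double-null against wild type Acta1 (-1.06), Acta2 (0.17) and Myl9 (-0.18) had the smallest p-values, and in double-null against Hopx-null Myl9 (-0.32), Actg2 (-0.42) and Acta2 (0.19). Acta1, the skeletal actin gene, was 665, 2345 and 2189 units in wild type and 804, 515 and 907 in double-null ventricles, and these overlapped.

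All 7 cell cycle genes were tested and none was called, against 0% to 0.031% of all genes. Their median was -0.04 in Hopx-null against wild type and -0.05 in double-null against Hdac2-null. Cdk2 (-0.26), Ccnd3 (-0.16) and Ccne1 (0.09) had the smallest p-values in the first comparison, and Cdk4 (-0.17), Ccne1 (0.13) and Ccnd3 (-0.21) in the second. Ccnd2 (-0.11), Cdk6 (-0.14) and Ccnd3 (-0.24) led in double-null against wild type, and Ccnd2 (-0.10), Cdk6 (-0.09) and Cdk2 (0.11) in double-null against Hopx-null. The lowest adjusted p among these was 0.5581.

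Of 7 Wnt targets, 4 were tested, and Axin2, Tcf7 and Sp5 were not. None was called, at the same background. Lef1, a Wnt effector gene, had values of -0.51 in Hopx-null against wild type and -0.53 in double-null against Hdac2-null, with a pooled adjusted p of 0.6045. Myc had 0.10 and -0.33 in those comparisons, Ccnd1 0.02 in the first and Nkd1 -0.14 in the second. For Nkd1 only Hdac2-null ventricle 1, at 110 units, exceeded the floor in that second comparison. Against wild type the double-null values were -0.30 for Lef1, 0.13 for Myc and -0.01 for Ccnd1, and against Hopx-null 0.21, 0.03 and -0.04.

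**Figure D5:**
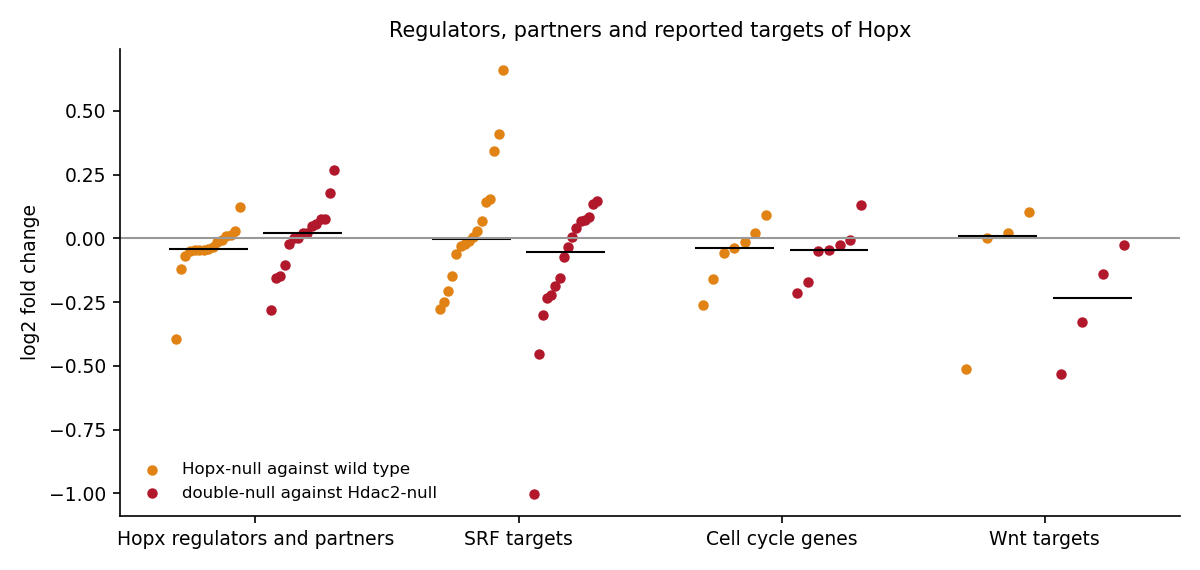
Log2 change of each tested member (points) of 4 gene lists in 2 comparisons that remove Hopx, with the list median (bars). Medians lie between -0.23 and 0.02, and no point passed the test across genes.

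Genes whose pattern was most like that of the brighter Hopx probe set over 12 arrays were Vkorc1, Tgfbr3, Ube2b, Hnrnpul2 and Slc25a39, with Pearson r of 0.91, 0.89, 0.87, 0.86 and 0.86. These are descriptions over arrays that fall into 2 clusters of Hopx signal. Each gene spanned at most 0.34 log2 units over the arrays, against 2.89 for Hopx. Vkorc1, the vitamin K epoxide reductase subunit gene, was 1804 ± 95.8 units in wild type, 1905 ± 66.4 in Hdac2-null, 1619 ± 47.4 in the Hopx-null group and 1622 ± 59.97 in the double-null group. Within the 6 arrays with Hopx intact its r was 0.86, and within the 6 without it 0.09. For Ube2b those values were -0.16 and -0.08. The dimmer Hopx probe set had an r of 0.99 over 12 arrays.

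Over the 6 arrays with Hopx intact, the most alike were Mtor (0.99), Prpf40b (0.99), Mob3b (0.99), Fam241a (0.98) and Prrc2a (0.98). With so few arrays, 114 of 9666 genes reached an r of 0.9, and the dimmer Hopx probe set itself had 0.94. Mtor, the growth kinase gene, was 1588, 1581 and 1831 units in wild type and 1865, 1838 and 1842 in Hdac2-null ventricles. Wild types 1 and 2 were low and the other 4 arrays high, the same split as in Hopx. Without those 2 arrays the r of Mtor was 0.08 and that of Prpf40b, a splicing factor gene, 0.74.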

How the data were processed

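Signals of 12 Affymetrix arrays were read from the deposited value table. Its values are intensity on a linear scale, and MAS5 is named per the submitters' processing notes with no version. No scaling step was stated, and 48.6% of deposited values lie within 1 unit of 4.5. Precision is limited by having 3 arrays in each group. Control probe sets (64) were left out. Signals were raised to a floor of 82.5 units, 0.1 times the mean 2% trimmed mean, and then log2-transformed. Each gene was read at its brightest probe set by mean, and genes below the 40th percentile of signal or constant after flooring were dropped, leaving 9667. Limma 3.58.1 in R 4.3.3 fitted 1 coefficient per genotype with an intensity trend over all 12 arrays (8 residual degrees of freedom), with Benjamini-Hochberg adjustment over all genes. The dimmer Hopx probe set was tested in the same model over 15712 probe sets. The scripts were tested on simulated data. Symbols of 34741 probe sets matched the RefSeq gene table, and 932 probe sets naming several genes were not used.

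Members and lists were chosen with earlier results of these data known. Named genes were both Hopx probe sets, Hdac2, the called members and the 3 smallest p-values of each list, the 2 tested neighbours nearest on each side and those with an unadjusted p under 0.05, and the 5 genes with the highest r. The pooled comparison of arrays without and with Hopx, and the closer look at Thegl, were added after the values were seen. The promoter and gene tables are of build GRCm38.p6, and the build behind the array annotation was not stated in the labels.

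Replicate numbers are shared between groups. Deviations from the group means correlated between wild-type and Hopx-null arrays of the same number (r 0.42, 0.42 and 0.15). In no other pair of groups compared did all 3 exceed 0.1. They did so between Hdac2-null and Hopx-null arrays (0.21, 0.17 and 0.12), a pair not compared here. The labels state no pairing and arrays of unlike number were not correlated, so whether the numbers pair arrays cannot be decided. Alternatives were other floors, quantile normalisation, no filter, no trend, array weights, fewer groups, every probe set, a replicate block and leaving out each array.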

Additional observations from a re-analysis of the deposited data

Results flagged for a closer look

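The difference in Hopx signal without against with Hdac2 had opposite signs where Hopx was intact and where it was lost, though neither difference passed. With Hopx intact, the Hdac2-null mean lay above the wild-type mean, and with Hopx lost every double-null array lay below every Hopx-null array at the brighter probe set. The groups of 14.8% of tested genes did not overlap in that comparison. The gap between these differences was -0.54 on the log2 scale at the brighter and -0.86 at the dimmer probe set. It was tested as the interaction and did not pass (adjusted p = 0.942 and 0.951, limma). At the dimmer probe set the arrays without Hopx were all at the floor, so that value restates the difference with Hopx intact.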

How the results depend on the processing

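The fall of Hopx in the 3 comparisons that remove it kept its direction and passed under all 21 alternatives at the brighter probe set, with log2 changes from -2.37 to -2.11, -2.60 to -2.34 and -2.85 to -2.81. Among these alternatives, the fit with no filter tested the same 9667 genes as the main fit and was no separate check. With the replicate block the Hopx change was -2.28 in Hopx-null against wild type (adjusted p = 7.46e-05, limma), and the block changed no call of Hopx in any comparison. At the dimmer probe set the exception was the fit of only the groups compared in Hopx-null against wild type (adjusted p = 0.0932, log2 change -3.18). Leaving out single arrays gave Hopx in Hdac2-null against wild type a range of 0.23 to 0.48 and the interaction a range of -0.71 to -0.46. Only the fits without wild-type ventricle 3 passed, as did the dimmer probe set in Hdac2-null against wild type (1.17). The dimmer interaction did not pass in any of the fits with 1 array left out. With array weights Thegl (0.37, adjusted p = 0.0349), Paics, Noa1, Tecrl, Cenpc1 and Actg2 passed in double-null against Hdac2-null. Thegl was also called in the pooled comparison without the floor, where its 6 values with Hopx intact are below the floor, so that call is not used. Counts of calls moved by more than 1.5 times in these cases, where the fits of every probe set count probe sets and not genes. Hopx-null against wild type rose from 1 to 2 without the floor and with every probe set. With every probe set those 2 were both Hopx probe sets, as they were in the pooled comparison. Double-null against wild type rose from 3 to 6 with every probe set, the 6 naming Hdac2, Hopx, Myef2 and Tnni2. It ran from 2 to 8 with 1 array left out (8 without wild type 3). Double-null against Hdac2-null rose from 1 to 3 with every probe set, the 3 naming Gadd45b and Hopx, and to 951 with array weights. Hdac2-null against wild type rose from 2 to 4 without the floor and ran from 2 to 4 with 1 array left out (4 without wild type 3). Double-null against Hopx-null fell from 2 to 1 without the floor, with a floor of 41.3 units, with only the groups compared and with the replicate block, and ran from 1 to 3, with 1 call in 7 of the 12 such fits. The interaction ran from 0 to 1 (1 without wild type 3). The pooled comparison rose from 1 to 2 without the floor and with every probe set and ran from 1 to 2 (2 without wild type 2). For the moves not set by the number of probe sets or arrays, the cause was not tested. The floor hides differences below 82.5 units, and 3 arrays a group cannot give an exact p below 0.1.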
